A study of Sus scrofa with 6 samples.

Results

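The genes described here are 8 transcripts of iron storage, heme breakdown, metal binding and redox repair: the ferritin subunits FTH1 and FTL, the heme oxygenase HMOX1, the quinone reductase NQO1, the metallothionein MT1A, the pentose phosphate enzyme TALDO1, and the methionine sulfoxide reductases MSRA and MSRB1. They were chosen by name, as every probe set (a group of short probes for 1 transcript) that the platform annotation assigns to them, out of 6765 genes with a probe set of their own. Of the 16 probe sets found, 10 are annotated to 1 of the 8 genes alone and 6 are shared with another gene. The series measured RNA on Affymetrix Porcine Genome Arrays. It asks how the redox-sensitive protein DJ-1 acts in pig embryos that carry a transferred somatic nucleus (nuclear transfer, NT). The groups were NT embryos injected with an antibody against DJ-1 (anti-DJ1, 2 arrays), NT embryos injected with control IgG (2 arrays), NT embryos with no injection (1 array), and the donor cells that supplied the nuclei (1 array). Each embryo sample was a pool of 23 to 26, taken 28 h after transfer when many had reached the 2-cell stage, and all embryos were built from oocytes of slaughterhouse origin. The donor cells were cultured fibroblasts of an adult Meishan pig, grown in a different medium from the embryos. Trial 1 held 1 array of each group and trial 2 a second anti-DJ1 and a second IgG array.

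Cells answer oxidants and reactive metals partly through the transcription factor NRF2, which the adaptor KEAP1 normally sends for degradation and which, once freed, switches on genes of antioxidant defence. Genes of this kind include those for ferritin, the protein shell that stores iron in a safe form, and for heme oxygenase, which releases iron from heme. Ferritin is also controlled at translation by iron regulatory proteins, so its transcript level and its protein level can differ. In mammalian embryos before genome activation most transcripts were laid down by the oocyte.

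Values are MAS5 signals as the authors deposited them, a brightness on a linear scale, with a trimmed mean between 499.8 and 499.9 on every array. A signal at or below the array's highest Tag control, a spiked control with no target in pig RNA, is described as within background. That limit ranged from 21.4 to 47.0. Fold changes and tests are on the log2(signal + 4.57) scale and come from limma, fitted to all 6 arrays and 14399 probe sets with the trial as a block and adjusted over all of these. Errors of log2 changes are standard errors (SE). The arrays matched their labels in their leading markers, with the summed signal of 9 oocyte and early embryo markers between 71599 and 113111 on the embryo arrays and 256 on the donor cell array. The fibroblast sum over 13 markers lay between 3565 and 4262 on embryo arrays and was 96018 on the donor cell array. There VIM, FN1, SPARC and THY1 were bright. The matrix genes DCN (5.58) and LUM (1.71) were within background there, and the keratin KRT8 had a signal of 9907. Of 10 fibroblast markers tested, 8 were lower in embryos than in donor cells and 2 were higher, DCN (log2 change 2.91) and PDGFRB (1.20). S100A4, among the 8, was bright enough for testing only through the donor cell array (1237, against 27.5 to 47.4 on embryo arrays). Its lower value was thus fixed in advance and gives no support. Of 14 cumulus and granulosa cell markers, 7 were within background on all 5 embryo arrays, including FSHR and AMH. Another 5 were above background on all 5 embryo arrays, including INHBA (975 to 1495), FST (323 to 500) and VCAN (129 to 323). Of 6 tested, 3 were higher and 1 lower in embryos than in donor cells. The sum was 1871 to 2682 on the embryo arrays against 13037 on the donor cell array, where KRT8 and KRT18 made up most of it. Of 6 blood cell markers, 5 lay within background on at least 1 embryo array, and their sum, 1152 to 2102 on embryo arrays against 998 on the donor cell array, was mostly HBB.

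FTH1, the ferritin heavy chain that carries the ferroxidase site (NCBI gene ID 397030), had signals of 2425 and 4707 in anti-DJ1 embryos, 2286 and 4269 in IgG and 2498 in non-injected embryos, against 12414 in donor cells, with the trial 1 array given first. All 5 embryo arrays lay below the donor cell array, and the embryo arrays of trial 2 lay above those of trial 1. FTL, the ferritin light chain that promotes iron core formation (gene ID 397035), was read by 2 probe sets that behaved differently. The brighter had signals of 13313 and 16669 in anti-DJ1, 11135 and 18901 in IgG and 14314 in non-injected embryos, against 9503 in donor cells. It ranked between percentile 98.6 and 99.95 of all probe sets on the embryo arrays and at 98.9 on the donor cell array, and all 5 embryo arrays lay above the donor cell array. The dimmer went the other way, with 60.5 and 81.5 in anti-DJ1, 84.4 and 40.5 in IgG and 72.9 in non-injected embryos, against 937 in donor cells. Its value on the IgG array of trial 2 was within background. Which of the FTL probe sets reads the transcript better was not tested.

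**Figure D1:**
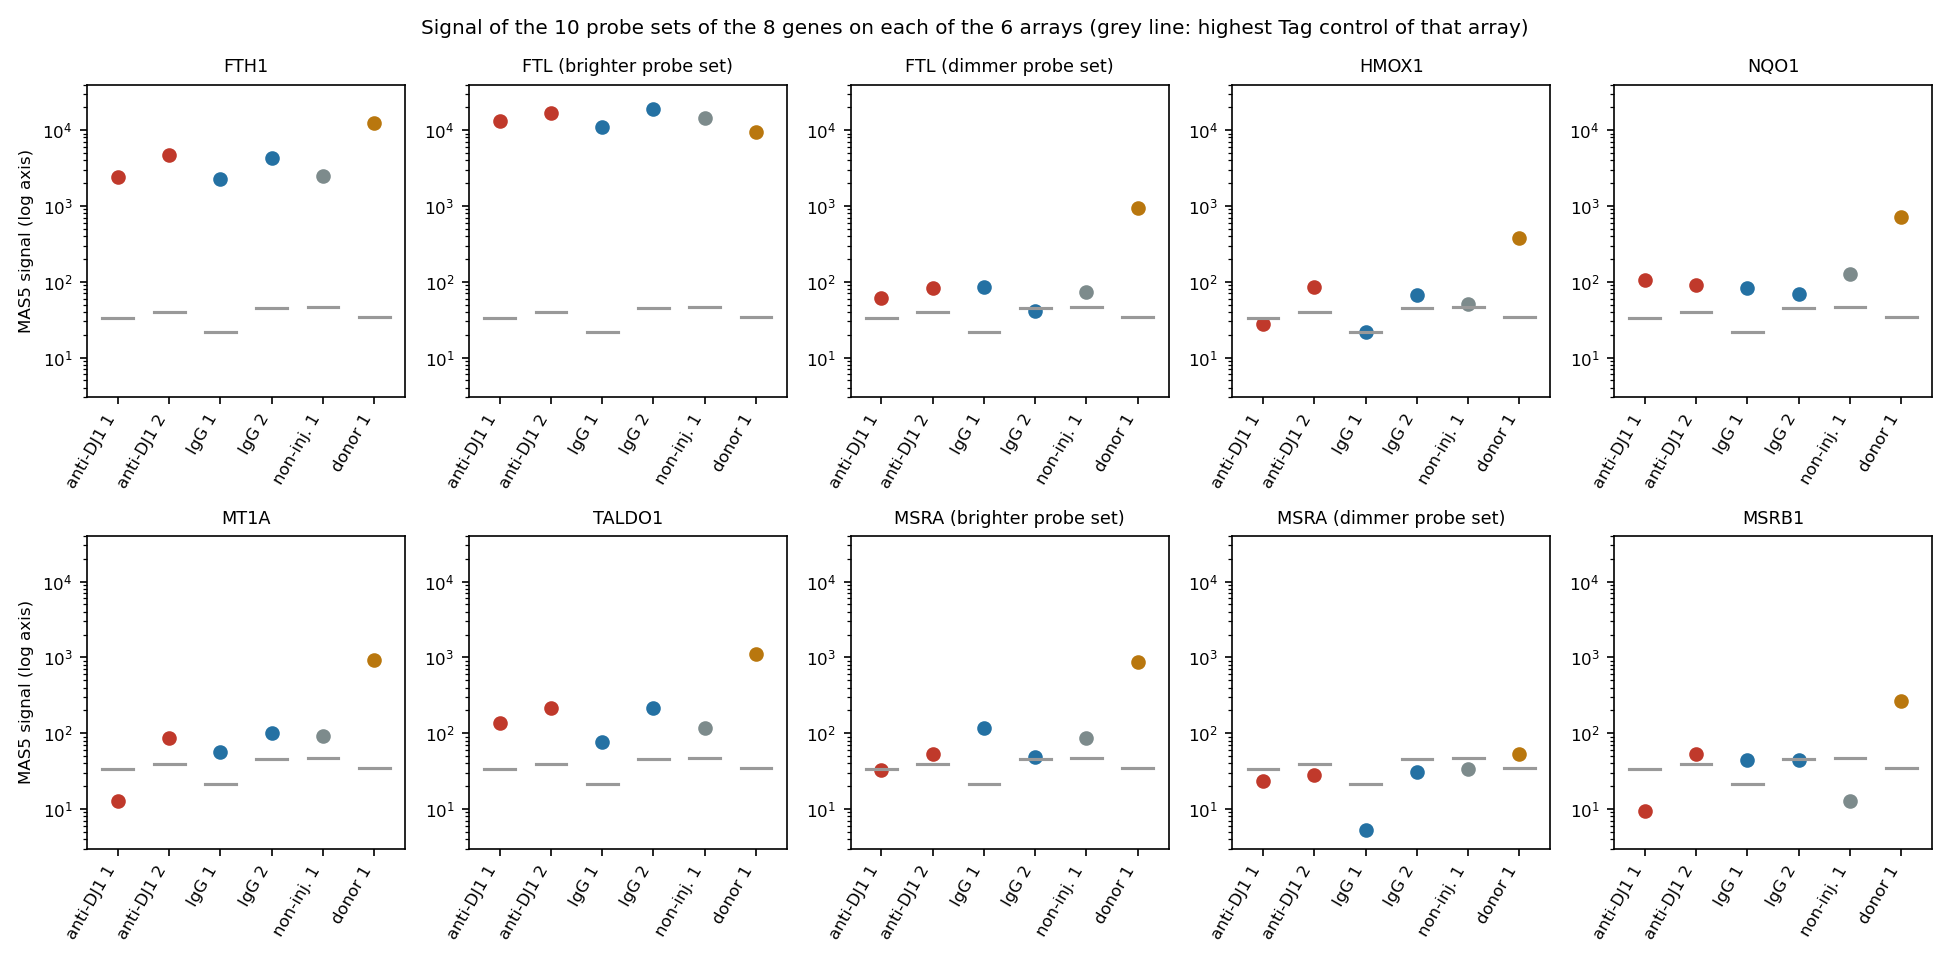
MAS5 signal on a log axis for each of the 10 probe sets of the 8 genes. Each point is 1 array (anti-DJ1, IgG, non-injected, donor cells, with the replicate number), and the grey line is the highest Tag control of that array. The donor cell array is the highest in every panel but that of the brighter FTL probe set, where it is the lowest at 9503.

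HMOX1, which opens the heme ring and frees its iron (gene ID 445512), had signals of 27.9 and 83.9 in anti-DJ1, 21.8 and 66.4 in IgG and 50.4 in non-injected embryos, against 372 in donor cells. The value of anti-DJ1 embryos in trial 1 was within background, and those of the IgG array of trial 1 and the non-injected array stood just above it. NQO1, a flavoenzyme that reduces quinones and is a standard NRF2 target in mammals (gene ID 100286873), had 107 and 89.9 in anti-DJ1, 82.7 and 69.3 in IgG and 127 in non-injected embryos, against 710.4 in donor cells. All of its values were above background, and both anti-DJ1 values lay above both IgG values, as they did in 8.7% of all probe sets tested. MT1A, a cysteine-rich protein that binds zinc and copper (gene ID 397417), had 12.9 and 86.2 in anti-DJ1, 57.1 and 102 in IgG and 92.7 in non-injected embryos, against 929 in donor cells. The low array was that of anti-DJ1 embryos in trial 1, which was within background. TALDO1, transaldolase of the branch that links the pentose phosphate pathway to glycolysis (gene ID 100514210), had 135 and 217 in anti-DJ1, 76.4 and 212 in IgG and 118 in non-injected embryos, against 1119 in donor cells. Both trial 2 arrays were the highest among embryos.

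MSRA and MSRB1 reduce the S and R forms of oxidised methionine in proteins, and MSRB1 is a selenoprotein in mammals. MSRA had 32.7 and 52.6 in anti-DJ1, 116 and 48.0 in IgG and 86.6 in non-injected embryos, against 881 in donor cells, by its brighter probe set (gene ID 100152960). The value of anti-DJ1 embryos in trial 1 was within background. Its dimmer probe set was within background on all 5 embryo arrays, with 23.3 and 27.9 in anti-DJ1, 5.28 and 30.6 in IgG and 34.1 in non-injected embryos, against 53.1 in donor cells, which makes it at least 1.42-fold lower in embryos by the Tag limits. This probe set was below the filter and was not tested. MSRB1 (gene ID 100037965) had 9.48 and 52.5 in anti-DJ1, 44.0 and 44.0 in IgG and 12.6 in non-injected embryos, against 264 in donor cells. It was within background on 3 of the 5 embryo arrays, the non-injected one among them, so its comparisons with that array have at most a limit on 1 side.

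Among the 5 embryo arrays, the coefficient of variation was lowest for the brighter FTL probe set, at 20.2%, followed by 23.4% for NQO1, 26.4% for the dimmer FTL probe set, 35.7% for FTH1 and 40.4% for TALDO1. It was 50.3% for MSRA (brighter probe set), 51.6% for MT1A, 51.9% for HMOX1 and 61.3% for MSRB1. These last 4 genes, and the dimmer FTL probe set, each had 1 or more embryo arrays within background.

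NT embryos held less transcript of 7 of the 8 genes than the donor cells by their brightest probe set, while FTL had no settled direction. MSRB1 is among the 7, but it passed the filter on low values only through the donor cell array, so its test gives no support. Relative to donor cells, the log2 change was -4.31 ± 0.46 for MT1A (limma, adjusted p = 3.08e-06), -3.57 ± 0.48 for MSRA (2.45e-05), -3.57 ± 0.70 for MSRB1 (0.000582) and -3.38 ± 0.47 for HMOX1 (3e-05). It was -3.33 ± 0.29 for TALDO1 (4.75e-07), -2.72 ± 0.32 for NQO1 (6.49e-06) and -2.37 ± 0.13 for FTH1 (4.92e-09). The sizes for MT1A, MSRA, MSRB1 and HMOX1 rest in part on embryo arrays within background, that of anti-DJ1 embryos in trial 1 among them. Without that array and with no block, the change was -3.38 for MT1A and -2.66 for HMOX1. The embryo value is the mean of the 3 embryo groups at the level of trial 1, and the donor cells are a single array that is assumed to vary like the replicated ones. In signal, the donor cell array stood above the highest embryo array by 2.64-fold for FTH1, 4.44-fold for HMOX1, 5.04-fold for MSRB1, 5.15-fold for TALDO1, 5.61-fold for NQO1, 7.57-fold for MSRA and 9.09-fold for MT1A. FTL by its brighter probe set rose by 0.44 ± 0.13 in embryos (limma, adjusted p = 0.0101), but the value was 0.0037 (adjusted p = 0.976) under quantile normalization. Its dimmer probe set, within background on the IgG array of trial 2, fell by 3.62 ± 0.43 (7.35e-06). Whether the ferritin subunits differ in direction is thus not settled. FTL also did not pass with the block left out (0.62, adjusted p = 0.223), with 1 array left out and no block (0.49 to 0.74, adjusted p from 0.217 to 0.439) or without the mean-variance trend (adjusted p = 0.181).

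Of the 9 probe sets tested, 8 were lower and 1 higher in embryos. Over all 14399 probe sets, 36.5% were called lower and 36.4% higher in this comparison, and the median change was -0.02, against -3.38 for the 9 probe sets. One of the 9, for MSRB1, passed the filter on low values only through the donor cell array, so it had to differ. The counts and the median of the 9 include it. Of all 14399 probe sets, 831 passed the filter in this way. In bulk samples, fewer cells of a type and less RNA per cell cannot be told apart, and with a common scaling a signal is relative to the rest of the array. Under quantile normalization the median of all probe sets moved by 0.43 in this comparison. The changes of the 7 genes that fell then ranged from -3.96 for MT1A to -2.20 for NQO1, and all of them passed. EF1A, an abundant transcript with control probe sets at both ends, had a 3′ to 5′ signal ratio, higher where labelled RNA is shorter, of 8.20 to 30.0 on embryo arrays against 4.23 on the donor cell array. Its part in these differences was not tested.

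**Figure D2:**
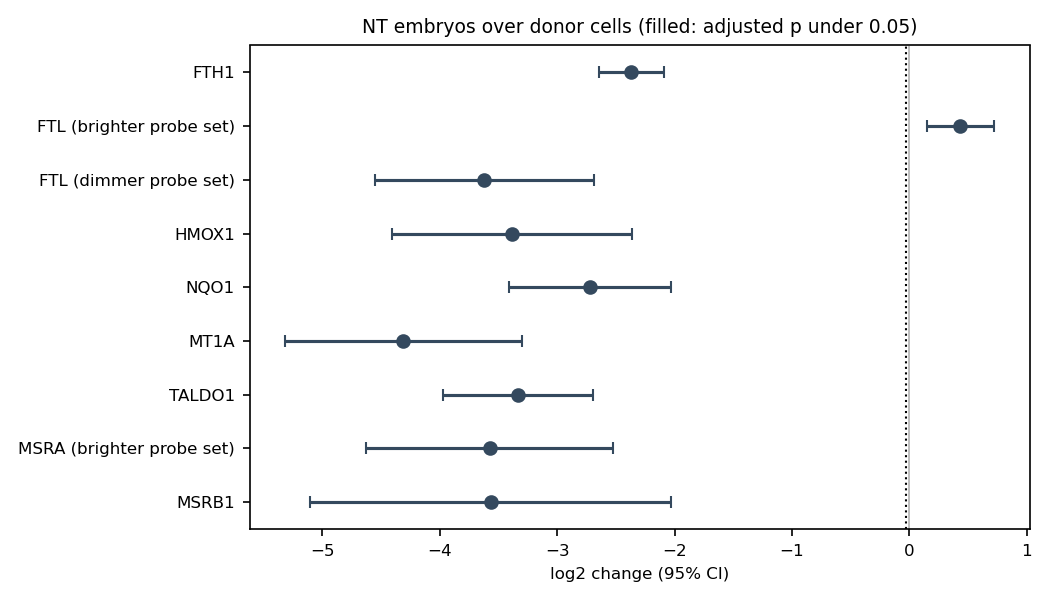
Log2 change of NT embryos over donor cells for the 9 probe sets tested, with 95% confidence intervals from limma. Filled points passed the adjusted threshold, and the dotted line is the median of all 14399 probe sets (-0.02). All but the brighter FTL probe set (0.44) lie between -4.31 and -2.37. The points of MT1A, MSRA, MSRB1, HMOX1 and the dimmer FTL probe set rest in part on embryo arrays within background.

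Related genes, grouped by the lists in the plot of related genes, were mixed. Of 121 listed genes, 69 had a probe set of their own and 56 were tested, of which 17 were higher and 30 lower in embryos than in donor cells, with a median of -0.94. Among genes of iron handling, 4 were higher and 4 lower of 9. ACO1, the cytosolic aconitase that doubles as an iron regulatory protein, fell by 4.76 ± 0.19 (adjusted p = 3.36e-10), while FBXL5, the iron-sensing ligase subunit that marks the other regulator for degradation, rose by 2.74 ± 0.12 (8.38e-10) and NCOA4, the receptor that delivers ferritin to lysosomes, by 1.13 ± 0.11 (1.91e-06). ISCU, the scaffold for iron-sulfur clusters, fell by 2.49 ± 0.24 (1.3e-06). For heme, 1 was higher and 3 lower of 5: ALAS1, the first enzyme of heme synthesis, fell by 3.04 ± 0.34 (5e-06), FECH, which inserts the iron, by 1.45 ± 0.15 (2.59e-06) and UROD by 1.83 ± 0.48 (0.00406), and the transporter FLVCR2 rose by 1.24 ± 0.27 (0.0011). On the non-injected array ALAS1 (33.1) and UROD (37.0) were within background, so the sizes of their changes are uncertain.

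In the pentose phosphate and NADPH list, 4 were higher and 2 lower of 7. Against the fall of TALDO1, its partner transketolase TKT fell by 5.02 ± 0.36 (limma, adjusted p = 7.21e-08), while RPIA, which isomerises ribose 5-phosphate, rose by 6.04 ± 0.13 (2.06e-12), with signals of 18048 and 10807 in anti-DJ1, 15327 and 12004 in IgG and 18732 in non-injected embryos, against 259 in donor cells. The size of the TKT change rests in part on the non-injected array, where its signal (24.8) was within background. RPE rose by 1.49 ± 0.27 (0.000319) and IDH1 fell by 1.15 ± 0.14 (1.12e-05). Among NRF2 targets of glutathione and thioredoxin metabolism, 4 were higher and 5 lower of 11. GSTM3, a glutathione transferase, rose by 5.81 ± 0.16 (1.67e-11) and the glutathione reductase GSR by 1.72 ± 0.12 (4.39e-08), while PRDX6 fell by 3.34 ± 0.19 (1.05e-08) and PRDX1 by 2.02 ± 0.15 (7.49e-08). The GSTM3 signal of donor cells (21.1) was within background, so the fitted value does not measure the size of its rise. Among detoxification and efflux targets, 2 were higher and 5 lower of 7, with the efflux pumps ABCC2 at 2.85 ± 0.19 (3.33e-08) and ABCG2 at -5.60 ± 0.25 (1.08e-09), and with AKR1A1 at -2.61 ± 0.25 (9.24e-07) and NQO2, a relative of NQO1, at -1.20 ± 0.25 (0.000827).

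Of 6 genes of metal response, 0 were higher and 4 lower in embryos, with the copper chaperone ATOX1 at -3.08 ± 0.29 (limma, adjusted p = 7.97e-07), the zinc transporters SLC39A1 at -1.58 ± 0.18 (4.95e-06) and SLC30A5 at -1.48 ± 0.21 (3.36e-05), and the copper chaperone of superoxide dismutase CCS at -1.48 ± 0.36 (0.00284). Of 10 genes of the methionine sulfoxide and selenoprotein list, 2 were higher and 6 lower. MSRB3, a further methionine sulfoxide reductase, fell by 5.50 ± 0.35 (2.58e-08), and the selenoproteins SELENOS, SELENOF and SELENOT stood at -3.32 ± 0.20 (1.27e-08), -2.51 ± 0.17 (4.2e-08) and -1.55 ± 0.14 (8.38e-07). The MSRB3 signal of the non-injected array (41.4) was within background. SQSTM1, an autophagy receptor that competes with NRF2 for KEAP1, was the 1 gene of 12 NRF2 regulators with a probe set of its own here, and fell by 0.90 ± 0.13 (3.25e-05).

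**Figure D3:**
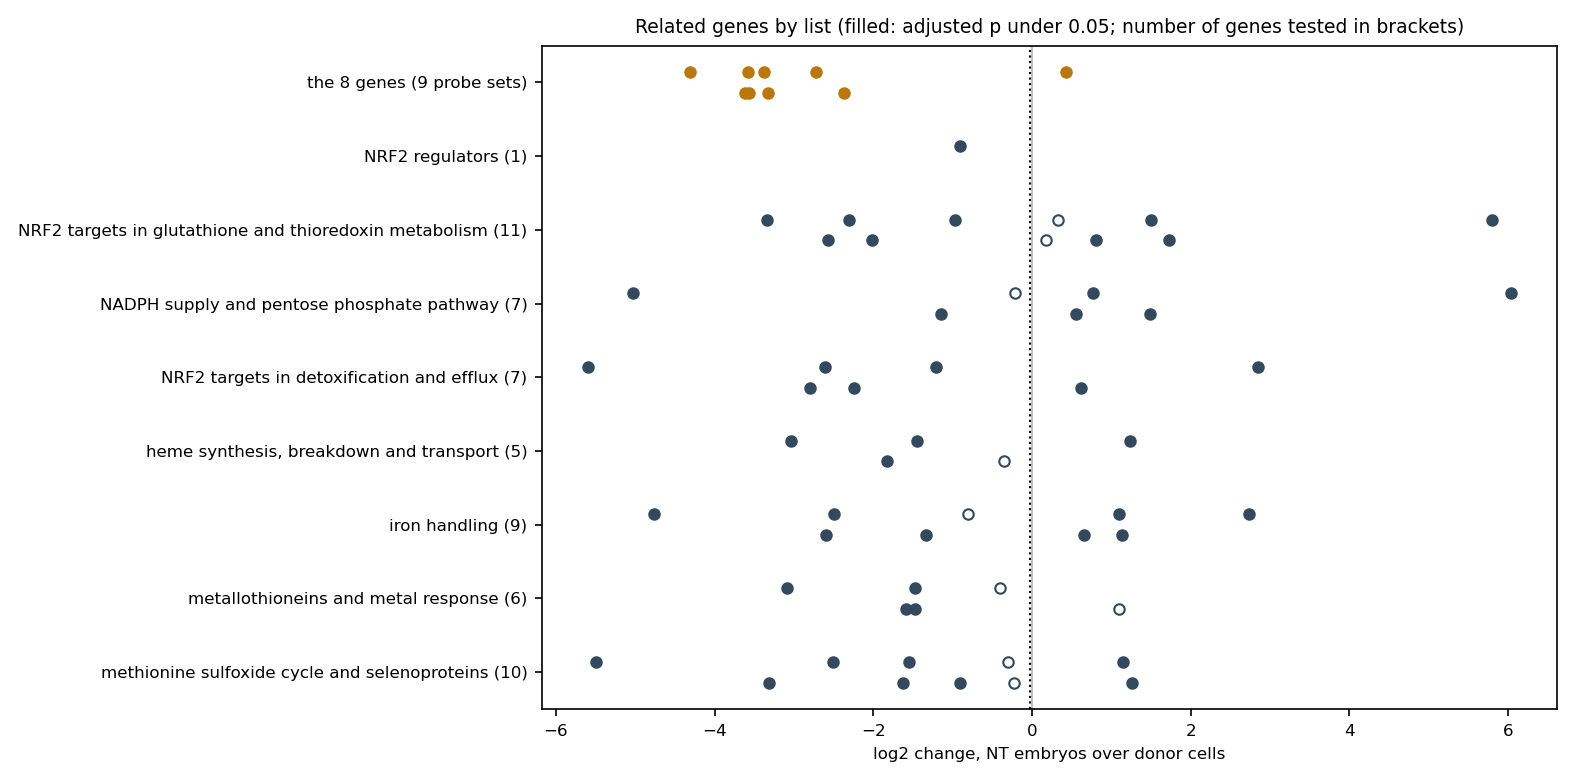
Log2 change of NT embryos over donor cells for the 9 probe sets of the 8 genes (top row) and for the 56 related genes tested, by list. Filled points passed the adjusted threshold, the vertical offset within a row only separates points, and the dotted line is the median of all probe sets. The lists hold points on both sides, from -5.60 (ABCG2) to 6.04 (RPIA), apart from the list of NRF2 regulators with its 1 gene.

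Whether the antibody against DJ-1 alters these transcripts is read from anti-DJ1 over IgG embryos. None of the 9 probe sets passed (limma, adjusted p from 0.853 to 0.986), and 1, for MT1A, had an unadjusted p under 0.05. No probe set of the 14399 was called in this comparison, a share of 0%, with 838 at an unadjusted p under 0.05. When testing was limited to the upper 40% by mean, 43 were called, none of them for FTH1, FTL (brighter probe set), NQO1 or TALDO1. The other probe sets of the 8 genes, that of MT1A among them, fell outside this limit and were not tested there. The median change was 0.11 over the 9 probe sets and -0.0054 over all. The ferritins were the best bounded: FTH1 averaged 3566 ± 1613 in anti-DJ1 and 3278 ± 1402 in IgG embryos (SD, n = 2 each), a log2 change of 0.11 ± 0.11 with a 95% interval from -0.13 to 0.35, and FTL by its brighter probe set averaged 14991 ± 2373 in anti-DJ1 and 15018 ± 5491 in IgG embryos, a change of 0.04 ± 0.11 with an interval from -0.21 to 0.29.

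Within each trial the arrays of anti-DJ1 and IgG embryos could be set against each other directly. NQO1 stood at 1.29-fold in trial 1 and 1.30-fold in trial 2, with a fitted log2 change of 0.35 ± 0.27 (limma, adjusted p = 0.927). HMOX1 stood at 1.26-fold in trial 2 and had no usable ratio in trial 1, where the anti-DJ1 signal was within background and the IgG signal at its limit (0.31 ± 0.40, adjusted p = 0.969). FTH1 stood at 1.06-fold in trial 1 and 1.10-fold in trial 2. TALDO1 stood at 1.77-fold in trial 1 and 1.02-fold in trial 2 (0.41 ± 0.25, adjusted p = 0.918). The brighter FTL probe set differed in direction between the trials, at 1.20-fold in trial 1 and 0.882-fold in trial 2, as did the dimmer, at 0.717-fold in trial 1 and at least 1.79-fold in trial 2, where the IgG signal was within background.

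MT1A was at least 1.71-fold lower in anti-DJ1 embryos in trial 1, by the Tag limit of the anti-DJ1 array, and stood at 0.844-fold in trial 2, a fitted change of -1.03 ± 0.40 with an interval from -1.90 to -0.15 (unadjusted p = 0.025, limma, adjusted p = 0.853). The fitted value rests on a signal within background. MSRA (brighter probe set) and MSRB1 were within background on the same array, which makes them at least 3.49-fold and at least 1.32-fold lower in trial 1. In trial 2 MSRA stood at 1.10-fold and MSRB1 was at least 1.15-fold higher, with the IgG array of that trial within background for MSRB1. Their fitted changes were -0.79 ± 0.42 (adjusted p = 0.896) and -0.78 ± 0.61 (0.927), and the MSRB1 interval, from -2.11 to 0.55, was the widest of the 9. Differences smaller than these intervals were not detectable with 2 arrays a group. Larger ones could also go uncalled, as for MT1A, since the intervals are not adjusted for the number of probe sets tested.

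**Figure D4:**
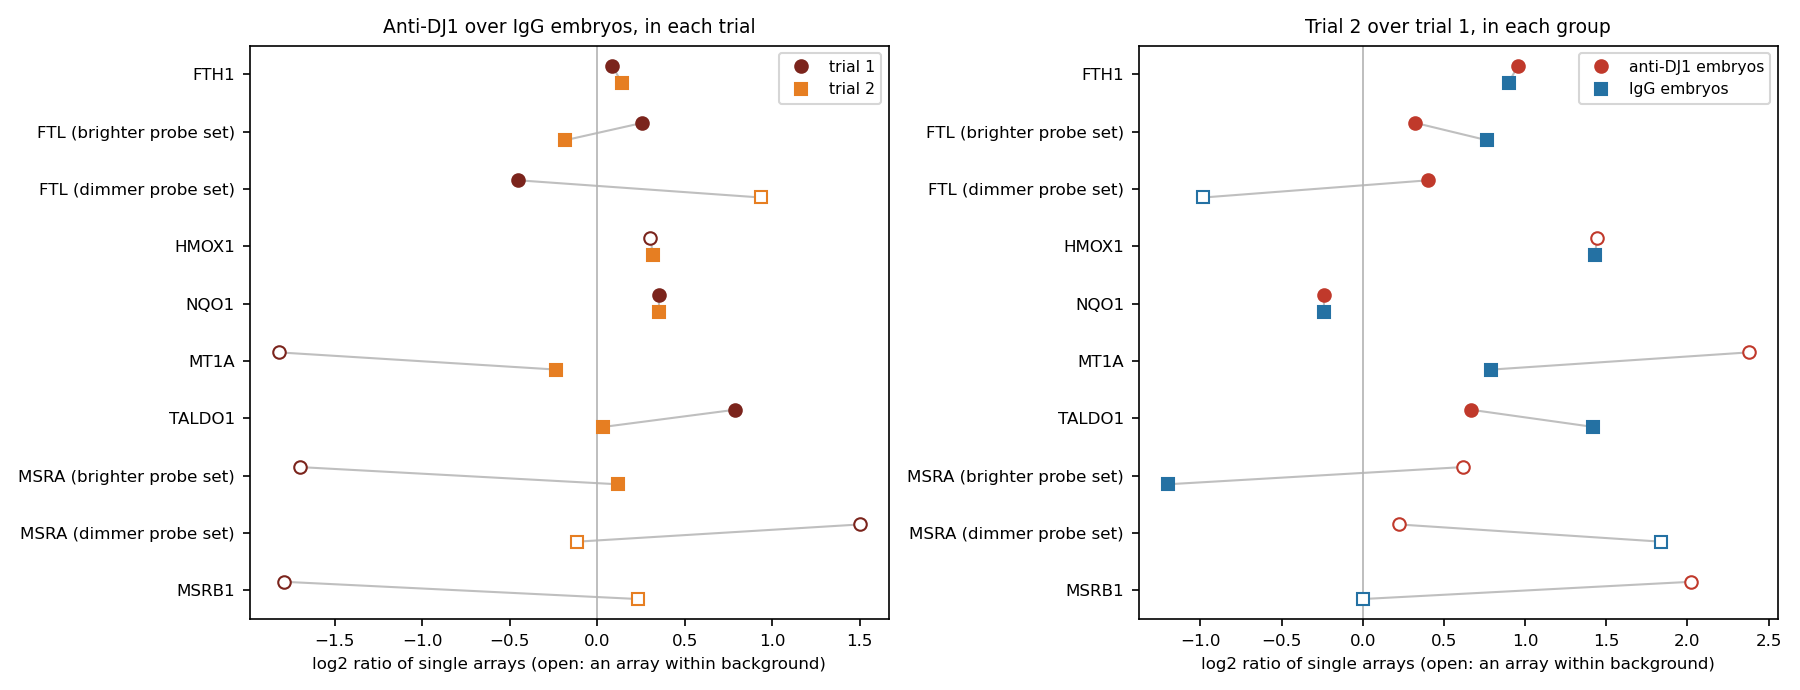
Left, log2 ratio of the anti-DJ1 array to the IgG array in trial 1 (circles) and trial 2 (squares) for the 10 probe sets. Right, log2 ratio of the trial 2 array to the trial 1 array in anti-DJ1 embryos (circles) and IgG embryos (squares). Points are ratios of single arrays, open where an array was within background, so that their position is no measure of size, and grey lines join the pair of a probe set. On the left the filled points of NQO1 lie together (0.35 and 0.35), while MT1A, MSRA and MSRB1 each have an open point in trial 1.

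The 56 related genes tested also gave 0 calls between anti-DJ1 and IgG embryos, with a median of 0.01. The smallest unadjusted p was that of EPHX1, a microsomal epoxide hydrolase, at -1.47 ± 0.47 (limma, adjusted p = 0.816). Its signals were 14.2 and 123 in anti-DJ1 and 115 and 149 in IgG embryos. This value too rested on the anti-DJ1 array of trial 1, which was within background. Next came TXNRD1, which reduces thioredoxin, at -0.34 ± 0.14 (adjusted p = 0.853), GPX2 at 0.61 ± 0.26 (0.853), FBXL5 at -0.24 ± 0.10 (0.853) and GCLM, the modifier subunit of glutathione synthesis, at -0.41 ± 0.19 (0.853).

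Against the single non-injected array, none of the 9 probe sets passed in anti-DJ1 embryos (limma, adjusted p from 0.0658 to 0.995) or in IgG embryos (0.338 to 0.980). These comparisons share that array. Over all probe sets, 1.92% were called in anti-DJ1 embryos (182 higher and 94 lower, or 148 and 46 under quantile normalization) and 1.26% in IgG embryos (132 higher and 50 lower). MT1A came nearest, with -2.08 ± 0.53 in anti-DJ1 (adjusted p = 0.0658) and -1.06 ± 0.53 in IgG embryos (0.338). The anti-DJ1 value was -0.10 (adjusted p = 0.999) without the anti-DJ1 array of trial 1, on which MT1A was within background, and -1.29 (adjusted p = 0.996) with no block. It passed only with a pseudocount of 16, at -1.63 (adjusted p = 0.0411). Its signals were 12.9 and 86.2 in anti-DJ1 and 57.1 and 102 in IgG embryos, against 92.7 in non-injected embryos, so the trial 1 arrays lay below that array and the trial 2 arrays on either side of it. HMOX1 stood at -0.75 ± 0.53 in anti-DJ1 and -1.07 ± 0.53 in IgG embryos, and NQO1 at -0.23 ± 0.36 in anti-DJ1 and -0.59 ± 0.36 in IgG embryos. FTH1 was at -0.03 ± 0.15 in anti-DJ1 and -0.14 ± 0.15 in IgG embryos, and FTL (brighter probe set) at -0.21 ± 0.15 in anti-DJ1 and -0.25 ± 0.15 in IgG embryos. MSRA was at -0.84 ± 0.55 in anti-DJ1 and -0.05 ± 0.55 in IgG embryos, and TALDO1 at 0.0062 ± 0.33 in anti-DJ1 and -0.41 ± 0.33 in IgG embryos. The fit sets the non-injected array against embryos at the level of trial 1. With no block, FTH1 was at 0.44 in anti-DJ1 and 0.32 in IgG embryos. Of the related genes, 1 of 56 passed in each comparison, TXN, the electron donor thioredoxin, at -0.67 ± 0.14 in anti-DJ1 (0.0409) and -0.67 ± 0.14 in IgG embryos (0.0483), but no probe set of the array was called in either comparison without the mean-variance trend or without the block.

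**Figure D5:**
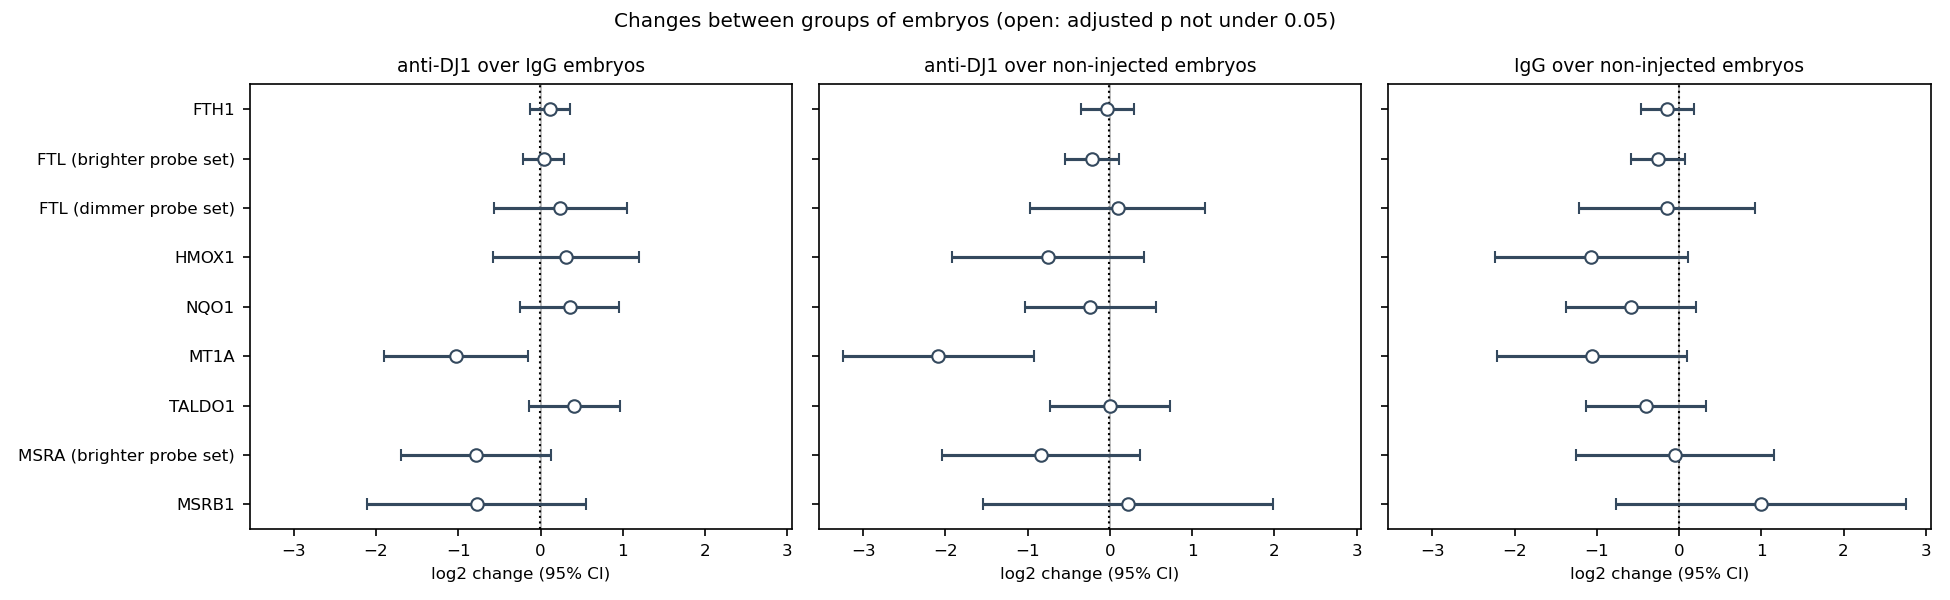
Log2 change with 95% confidence intervals from limma for the 9 probe sets in anti-DJ1 over IgG, anti-DJ1 over non-injected and IgG over non-injected embryos. All points are open, since none passed the adjusted threshold, and the dotted line is the median of all probe sets. The intervals are narrow for FTH1 (-0.13 to 0.35 in the left panel) and wide for MSRB1 (-2.11 to 0.55).

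Embryos of the 2 trials differed in 5 of the 9 probe sets. In trial 2, FTH1 had 4707 and 4269 against 2425, 2286 and 2498 on the embryo arrays of trial 1. The fitted difference comes from the anti-DJ1 and IgG arrays alone, since the non-injected array (2498) has no counterpart in trial 2. For FTH1 this log2 difference was 0.93 ± 0.11 (limma, adjusted p = 0.000111). It was 1.94-fold in anti-DJ1 and 1.87-fold in IgG embryos. HMOX1 was at least 2.52-fold higher in trial 2 in anti-DJ1 embryos, by the Tag limit of the trial 1 array, and 3.05-fold higher in IgG embryos, where the trial 1 signal was just above its limit (1.44 ± 0.40, adjusted p = 0.0176), TALDO1 1.61-fold in anti-DJ1 and 2.78-fold in IgG embryos (1.04 ± 0.25, 0.00821) and FTL by its brighter probe set 1.25-fold in anti-DJ1 and 1.70-fold in IgG embryos (0.54 ± 0.11, 0.00368). The FTL difference was 1.38 under quantile normalization. MT1A was at least 2.59-fold higher in anti-DJ1 embryos, by the same limit, and 1.79-fold higher in IgG embryos (1.59 ± 0.40, 0.0101). For FTH1, HMOX1, TALDO1 and the brighter FTL probe set, both trial 2 arrays lay above all 3 embryo arrays of trial 1, as they did in 33.9% of all probe sets tested.

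NQO1 did not follow, at 0.842-fold in anti-DJ1 and 0.838-fold in IgG embryos (-0.24 ± 0.27, limma, adjusted p = 0.548). The dimmer FTL probe set, at -0.29 ± 0.37, and MSRA, at -0.29 ± 0.42, had ratios of opposite direction in anti-DJ1 and IgG embryos, and MSRB1 stood at 1.01 ± 0.61 (0.232). In sum 5 of the 9 probe sets were higher and 0 lower in trial 2. Over all 14399 probe sets, 18.9% were called higher and 13.4% lower, with a median of 0.14, against 0.93 for the 9. No probe set was called without the mean-variance trend, where FTH1 had an adjusted p of 0.0851. HMOX1 lay at 0.0546 with no filter on low values. In trial 2 the EF1A ratio was 8.20 for anti-DJ1 and 9.34 for IgG embryos, against 24.2 for anti-DJ1, 23.9 for IgG and 30.0 for non-injected embryos in trial 1, and its part in the difference was not tested. Oocyte and embryo markers moved between the trials as well, 7 of 9 higher and 2 lower in trial 2. Embryo batch, handling and array run cannot be told apart here.

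Related genes also differed between the trials, 17 of 56 higher and 6 lower in trial 2. ISCU rose by 2.06 ± 0.21 (limma, adjusted p = 5.42e-05), PGD, which yields NADPH in the pentose phosphate pathway, by 1.87 ± 0.18 (4.26e-05), the selenoprotein gene SELENOW by 1.46 ± 0.19 (0.000179), AHCY by 1.28 ± 0.22 (0.00115), PRDX1 by 1.27 ± 0.13 (4.53e-05) and HMOX2 by 0.93 ± 0.20 (0.00357). The iron genes IREB2 and NCOA4 fell by 0.87 ± 0.14 (0.000826) and 0.79 ± 0.10 (0.000161), and GCLC, the catalytic subunit of glutathione synthesis, by 0.78 ± 0.10 (0.00017).

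The 6 probe sets annotated to several genes did not all follow their single-gene counterparts. Of the 5 shared between FTH1 and HDHD2, 2 were within background on all 6 arrays. Another had signals of 317 and 464 in anti-DJ1, 379 and 318 in IgG and 284 in non-injected embryos, against 313 in donor cells, and the brightest had 1346 and 1404 in anti-DJ1, 1352 and 1453 in IgG and 991 in non-injected embryos, against 1048 in donor cells. The last had 380.0 and 328 in anti-DJ1, 374 and 291 in IgG and 321 in non-injected embryos, against 5.44 in donor cells, the reverse of the FTH1 probe set above. The probe set shared by MT1A and MT3 had 45.5 and 50.5 in anti-DJ1, 75.4 and 76.4 in IgG and 64.6 in non-injected embryos, against 543 in donor cells. Its anti-DJ1 values lay below all other embryo values in both trials. Both anti-DJ1 arrays lay below both IgG arrays in 8.6% of all probe sets tested, and no probe set was called in that comparison. Which gene each of these probe sets reads cannot be told apart from the annotation.

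Among 6841 other probe sets tested that name 1 gene, those whose centred log2 profile over the 6 arrays lay closest to the 8 genes were ranked by the root mean square difference. The closest were CTNNB1 (0.10) and MRLC2 (0.11) to FTH1, RHOG (0.07) and CRIPT (0.07) to FTL, GSTO1 (0.15) and TMEM179B (0.16) to HMOX1, AMY2 (0.16) and PLBD2 (0.16) to NQO1, and PSMB4 (0.09) and AP2B1 (0.19) to TALDO1. For MT1A they were ZNF789 (0.27) and NDUFS1 (0.34), for MSRA TMBIM1 (0.26) and ETS2 (0.31), and for MSRB1 FAM84A (0.27) and SLC12A4 (0.28). The gap between embryos and donor cells is part of such a profile: the SD of the FTH1 profile was 0.93 over 6 arrays and 0.50 over the 5 embryo arrays. Over the embryo arrays alone, the closest were RPS10 and SDHA to FTH1 (0.04 each), MXD4 and RNASEH2C to FTL (0.03 and 0.05), JAGN1 and MYBBP1A to HMOX1 (0.08 and 0.09), CTDSPL and MPHOSPH10 to NQO1 (0.09 each), PTPRCAP and ADCK2 to MT1A (0.06 and 0.18), RTN3 and LOC100510975 to TALDO1 (0.04 and 0.06), COASY and DDX39B to MSRA (0.19 and 0.26), and IGF2 and SLC12A4 to MSRB1 (0.12 and 0.18). No gene was closest to more than 1 of the 8. The profiles of HMOX1, MT1A, MSRA and MSRB1 include embryo arrays within background, so their nearest genes match in part values that measure no size. How close the nearest of 6841 candidates would lie by chance was not tested.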

How the data were processed

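Total RNA, 50 ng per sample, was labelled with biotin in 2 rounds of amplification and hybridised to 1 array per sample, per the labels' protocols. The authors deposited 1 intensity per probe set, not on a log scale, and the submitters' processing notes name MAS5. Which version, scaling target and detection calls they used were not given in the sources used here. Of 24123 probe sets, 124 array controls were left out. Signals were set to log2(signal + 4.57), where 4.57 is their 10th percentile, and the 14399 of 23999 probe sets in the upper 60% of mean log2 value (mean above 39.6) were tested, among them 9 of the 10 for the 8 genes. Group and trial were terms of a linear model in limma (version 3.58.1, R 4.3.3), with eBayes moderation along a mean-variance trend. Tests were two-sided, p-values were adjusted by Benjamini-Hochberg, and the threshold was 0.05. There was 1 residual degree of freedom, to which moderation added 10.7. Tested on simulated data, the fit recovered most changes in the right direction. In some draws, however, it overestimated the moderation and called more unchanged probe sets than the threshold allows. Adjusted p-values may thus be too small, those near 0.05 in particular. Alternatives were other pseudocounts and filters, quantile normalization, no trend, no block and leaving out 1 array. Precision is limited by having 6 arrays, and with 2 arrays a group p-values rest on the shared spread.

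The design text calls the second pair of arrays biologically different samples and gives each trial its own IgG control, so trial was a block. Over tested probe sets the anti-DJ1 and IgG arrays of a trial deviated together (r = 0.588 over probe sets, whose values depend on each other). The 8 genes and the lists were chosen with earlier results of these data known. All probe sets of the 8 genes are named, and from each of 8 lists up to 4 genes with the smallest unadjusted p in a comparison, by the brightest probe set. The comparison of the trials was added after the data were seen. Gene names come from the platform annotation, which can be old, and a probe set with several symbols was tested but given to no gene.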

Additional observations from a re-analysis of the deposited data

How the results depend on the processing

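The 7 genes lower in embryos than in donor cells kept direction and call under every alternative that tested them. Of these genes, the upper 40% setting tested only FTH1, NQO1 and TALDO1, and MSRB1 passed the filter on low values only through the donor cell array. FTL did not keep its call, with the values given in the report. In the other comparisons the count of calls over all probe sets moved with the settings. Between anti-DJ1 and IgG embryos it was 43 when the upper 40% of probe sets were tested, 1 with a pseudocount of 16 and 0 otherwise. For anti-DJ1 over non-injected embryos, called 276 times, it was 71 with no filter, 878 with the upper 40%, 547 with a pseudocount of 16, 0 without the mean-variance trend, 0 with no replicate block and 0 to 1 with 1 array left out. For IgG over non-injected embryos, called 182 times, it was 48, 726, 409, 0, 0 and 0 to 0 in the same order. For trial 2 over trial 1, called 4651 times, it was 0 without the trend, and under quantile normalization 47.0% of calls were higher, against 58.7%, with the median of all probe sets moved by -0.15. The cause of these changes was not tested.

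Of 281 values of the 9 probe sets under alternatives on all arrays, 264 kept direction and call. The 9 that lost a call were 3 of FTL over donor cells and 6 of the trials, and 1 gained one, MT1A in anti-DJ1 over non-injected embryos. The 7 that turned sign did not pass the threshold, but not all were small: FTH1 in anti-DJ1 over non-injected embryos moved from -0.03 to 0.44. With no replicate block they were, for anti-DJ1 over non-injected embryos, FTH1 0.44, FTL 0.058 (brighter) and -0.050 (dimmer), and for IgG over non-injected embryos FTH1 0.32, FTL 0.019 (brighter) and TALDO1 0.12. Under quantile normalization FTL (brighter) was at 0.026 in anti-DJ1 over non-injected embryos.

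With 1 array left out no block was used, so the trials are unbalanced, and 34 of 144 values turned sign, none of them past the threshold. The lone array left in a group is assumed to vary like the others. For anti-DJ1 over IgG embryos the log2 change ranged from -0.36 to 0.59 for FTH1, -0.34 to 0.42 for FTL (brighter), -0.25 to 0.73 for FTL (dimmer), -0.41 to 1.03 for HMOX1, -2.22 to 0.16 for MT1A, -0.30 to 1.12 for TALDO1 and -1.79 to 0.23 for MSRB1. For anti-DJ1 over non-injected embryos it ranged from -0.042 to 0.91 for FTH1, -0.10 to 0.22 and -0.25 to 0.15 for the FTL probe sets, -0.76 to 0.69 for HMOX1 and -2.48 to -0.10 for MT1A. For MSRB1, within background on the non-injected array, the computed values from -0.29 to 1.73 measure no size. For IgG over non-injected embryos it ranged from -0.13 to 0.77 for FTH1, -0.36 to 0.40 and -0.78 to 0.20 for the FTL probe sets, -1.06 to 0.37 for HMOX1, -0.66 to 0.13 for MT1A, -0.59 to 0.83 for TALDO1 and -0.79 to 0.41 for MSRA (brighter).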
